A study of Mus musculus with 4 samples.

Results

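The genes examined were the Wnt ligands, the R-spondins, the frizzled receptors and the Lrp co-receptors of the mouse. They were taken by symbol from the protein-coding genes of the RefSeq table, a rule that uses no peak but was set with earlier results of these data known, and came to 35 of 21887 genes: 19 Wnt ligands (Wnt1 to Wnt16), 4 R-spondins (Rspo1 to Rspo4), 10 frizzled receptors (Fzd1 to Fzd10), and Lrp5 and Lrp6. Around each gene, peaks of CTCF, a DNA-binding protein found at many anchors of chromatin loops, were read from the gene body and the 50 kb on either side. The peaks came from chromatin immunoprecipitation and sequencing (ChIP-seq) at embryonic day 13.5, with 1 CTCF library from the medial ganglionic eminence (MGE), the ventral forebrain region that produces many cortical interneurons, and 1 from the telencephalon, the forebrain division that gives rise to cortex and ganglionic eminences. Input libraries of both tissues are not analysed here. The labels give no strain, genotype or number of embryos and no treatment other than dissociation of the tissue, and their text describes dissection of the MGE for every sample.

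Wnt proteins are secreted lipid-modified signals that bind frizzled receptors and the co-receptors Lrp5 and Lrp6 on the receiving cell, which in the canonical branch stabilises β-catenin. R-spondins are secreted amplifiers of the pathway that act through Lgr receptors and keep frizzled receptors at the cell surface. In the embryonic forebrain, Wnt genes of the cortical hem, at the dorsal midline, pattern the hippocampus and cortex, and the MGE lies ventrally. CTCF peaks near such genes mark where the protein was bound in bulk tissue. They do not say in which cells, and they carry no measure of gene expression, so the identity of the tissues could not be checked against marker genes.

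The sequence that bears most directly on these data is the stretch before the start of Wnt1, where both lists had a peak. It is shown with that before the downstream start of Wnt11, where the telencephalon list alone had a peak on the promoter. The Wnt11 peak was 150 bp wide, the narrowest width of that list, and lay 416 bp from the nearest MGE peak. Each line gives 250 bases before the annotated start, from RefSeq on mm10 (GRCm38.p6), 5′ to 3′ on the strand of the gene. Capitals mark a match to the core of the CTCF motif, searched on both strands; its fixed letters are spelled out with the matches further on. The Wnt1 stretch is chr15:98789607-98789856 and the Wnt11 stretch is chr7:98838595-98838844, both on the plus strand.
Wnt1: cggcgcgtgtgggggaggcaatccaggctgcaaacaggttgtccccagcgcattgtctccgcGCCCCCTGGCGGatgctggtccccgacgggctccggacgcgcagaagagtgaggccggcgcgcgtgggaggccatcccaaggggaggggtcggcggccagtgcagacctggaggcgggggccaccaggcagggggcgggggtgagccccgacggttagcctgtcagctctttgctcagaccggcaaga
Wnt11: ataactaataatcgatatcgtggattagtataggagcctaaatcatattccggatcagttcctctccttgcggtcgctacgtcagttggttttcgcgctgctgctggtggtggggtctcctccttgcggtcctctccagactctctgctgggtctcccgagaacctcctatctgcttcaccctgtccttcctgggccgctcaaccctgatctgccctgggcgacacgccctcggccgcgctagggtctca

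The MGE peak at Wnt1 (chr15:98789652-98789946, 295 bp) and the telencephalon peak (chr15:98789563-98790086, 524 bp) both contained the capitalised match, which began 188 bases before the start and read on the minus strand. The Wnt11 stretch held no match. Promoter windows in the RefSeq table, each made of these 250 bases and the 50 that follow the start, were found for 23 of the 35 genes, 26 windows in all. Of these 26, 1 had an MGE peak (3.83% of all 32851 promoter windows did) and 3 had a telencephalon peak (6.46% of all). Matches to the core motif lay in 4 of the 26 windows, at Wnt1, Rspo4, Fzd5 and Fzd9, against 8.61% of all promoter windows. They are written here in the direction of the motif, so that they can be compared. Capitals are the fixed letters of the search and lower case stands where any base was allowed.
Wnt1: CCgccAGggGGC
Rspo4: CCtagAGccGGC
Fzd5: CCcggAGcgGGC
Fzd9: CCgagAGatGGC

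Among the 26 windows, the one of Wnt1 also matched a stricter form, in which both free bases between AG and GGC must be G. Every match to the stricter form is also a match to the core, and 1.28% of all promoter windows held one. Neither the Rspo4 nor the Fzd9 match was under a peak. At Fzd5 the telencephalon peak (chr1:64737436-64737739) covered 39 bases of the promoter window at its gene side, and the match lay outside it, 183 bases before the start. Across all promoter windows, the core motif was found in 43.6% of the 1101 windows with a peak in both lists, in 21.7% of the 157 with an MGE peak only, in 22.5% of the 1020 with a telencephalon peak only and in 6.82% of the 30573 with neither. A match of letters is not a bound site, and the absence of one says only that these letters are not in the window.

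Most genes of the families had CTCF peaks in their surroundings, as did most protein-coding genes. There, 75.0% of MGE peaks and 49.2% of telencephalon peaks overlapped a peak of the other list. In the windows of all protein-coding genes 68.1% and 48.5% did. In the gene body or within 50 kb, 31 of 35 genes had an MGE peak (88.6%, interval 73.3 to 96.8%) and 33 of 35 a telencephalon peak (94.3%, 80.8 to 99.3%). Of all protein-coding genes, 80.3% and 82.8% had such a peak in the MGE and telencephalon lists. Intervals are exact 95% Clopper-Pearson intervals that cover counting error alone and treat genes as independent. The background values lay inside both intervals. All 31 genes with an MGE peak also had a telencephalon peak (a peak in both lists was found for 74.0% of all genes). Peaks inside the gene body were found for 14 genes in the MGE list (40.0%, against 31.4% of all genes) and for 18 in the telencephalon list (51.4%, against 39.1%). The 14 had a peak inside the gene in both lists (27.0% of all genes did). Wnt10a, Rspo3, Fzd7 and Lrp6 had one in the telencephalon list alone (4 genes, against 12.1% of all), 0 genes in the MGE list alone (against 4.45%) and 17 in neither (against 56.5%). Within 1 kb of an annotated gene end, 5 genes had an MGE peak (14.3%, against 12.1%) and 8 a telencephalon peak (22.9%, against 19.3%). The background values lay inside the intervals of these shares too. Among the 10639 protein-coding genes of 6469 to 46842 bp, the middle range of the families' lengths, 27.8% had an MGE peak and 37.9% a telencephalon peak inside the gene, and of the 17 family genes in that range 7 and 8 did.

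**Figure D1:**
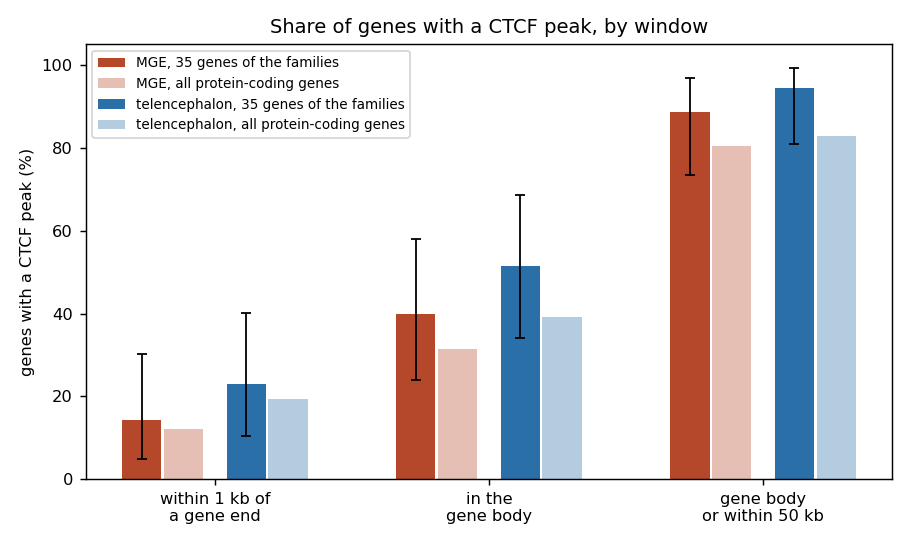
Share of genes (%) with a CTCF peak in 3 windows, for the MGE and telencephalon lists, with 1 library each. Dark bars are the 35 Wnt, R-spondin, frizzled and Lrp genes with exact 95% intervals, and pale bars are all 21887 protein-coding genes; each pale bar lies within the interval of the dark bar beside it, for example 80.3% against 73.3 to 96.8% in the widest MGE window.

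Counted once each, 80 MGE peaks and 120 telencephalon peaks lay in the windows of the 35 genes, which merge to 31 stretches and cover 4.37 Mb. This gave 18.3 MGE peaks per Mb (exact Poisson interval 14.5 to 22.8) and 27.5 telencephalon peaks per Mb (22.8 to 32.9). Over the merged windows of all protein-coding genes the densities were 11.7 and 16.4 peaks per Mb in the MGE and telencephalon lists. Other Wnt pathway genes, described further on, had 15.2 and 23.4. Both backgrounds over all genes lay below the intervals. A merged stretch counts once however many genes lie in it, so gene-dense stretches weigh less in these densities than in a count per gene. Per gene of the families the mean was 2.74 MGE and 4.14 telencephalon peaks. Over all protein-coding genes it was 2.16 and 3.26, a smaller gap than between the densities. The intervals take peaks as independent, which neighbouring peaks need not be, and the difference in density was not tested. The median gene of the families had 2 MGE peaks and 3 telencephalon peaks in its window, the same as the median protein-coding gene in each list. The number of peaks per gene ran from 0 to 8 in the MGE list and from 0 to 10 in the telencephalon list.

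Shared peaks are those with an overlap of 1 bp or more in the other tissue's list. In the family windows 60 of 80 MGE peaks were shared (75.0%, interval 64.1 to 84.0%), against 58.4% of all MGE peaks and 68.1% of MGE peaks in the windows of all protein-coding genes. Of the telencephalon peaks 59 of 120 were shared (49.2%, 39.9 to 58.4%), against 47.0% of all telencephalon peaks and 48.5% of those in gene windows. Other Wnt pathway genes gave 76.4% and 49.5%. The shares over peaks near genes lay inside the intervals of both family shares, and the share over all MGE peaks lay below the MGE interval. Midpoints of shared peaks lay a median of 55.75 bp apart over the 60 MGE peaks with a partner.

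**Figure D2:**
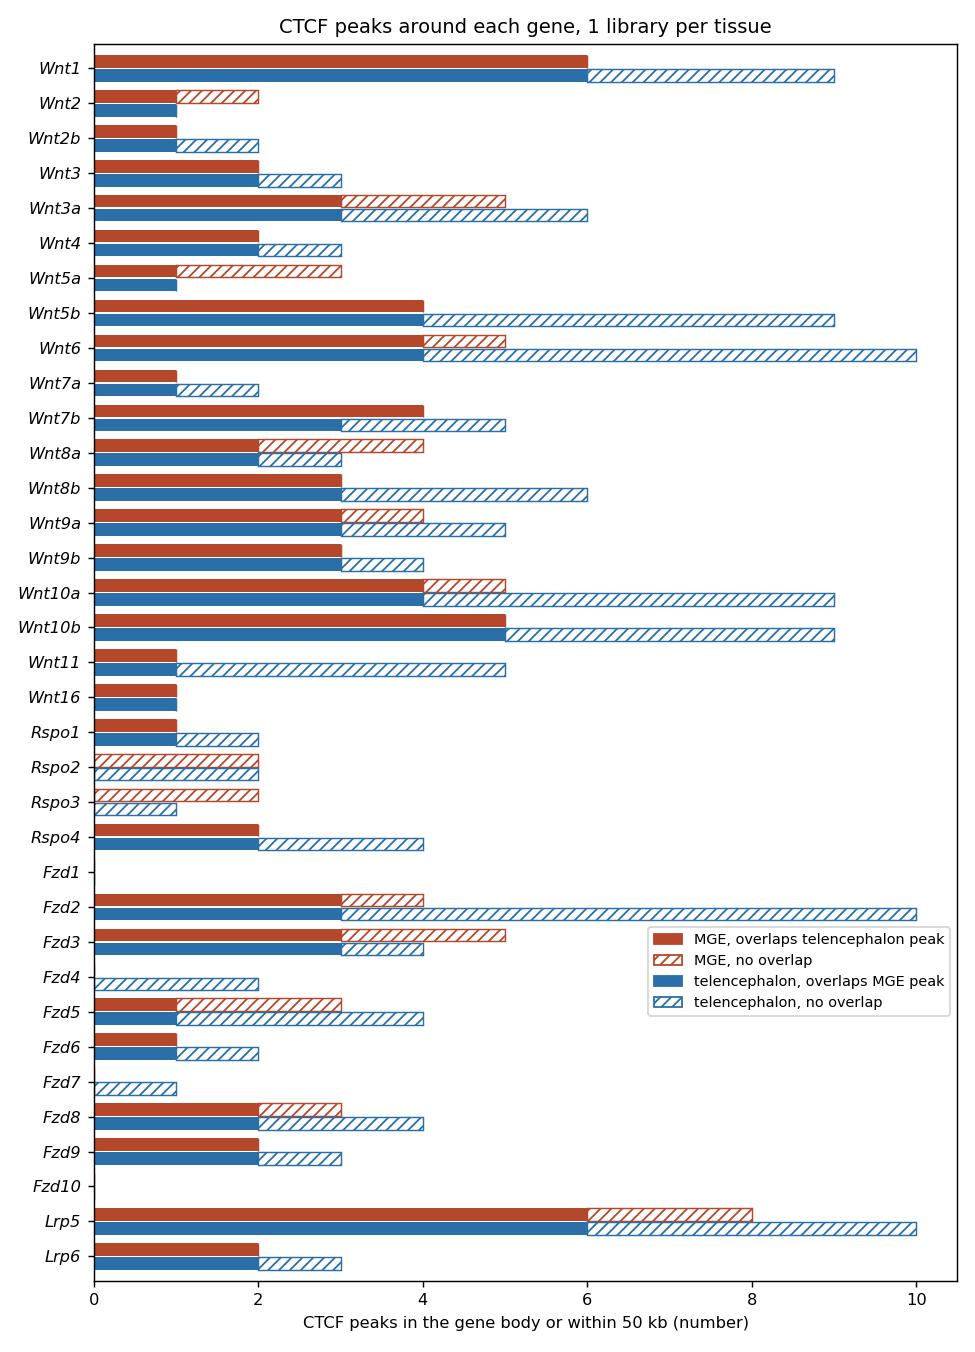
Number of CTCF peaks in the gene body or within 50 kb of each of the 35 genes, with the MGE bar above the telencephalon bar. Solid lengths are peaks that overlap a peak of the other list and hatched lengths are peaks that do not; Lrp5, with 8 MGE and 10 telencephalon peaks, has the longest MGE bar, and Fzd1 and Fzd10 have no bar.

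Of the 80 MGE peaks, 23 lay inside a gene of the families, 20 inside another protein-coding gene and 37 between genes. The 120 telencephalon peaks divided into 39, 28 and 53. A family gene was the nearest protein-coding gene for 47 MGE peaks (58.8%) and 74 telencephalon peaks (61.7%), so a large part of the peaks lay closer to a neighbour. Telencephalon peaks outnumbered MGE peaks in the windows of 26 genes, MGE peaks outnumbered telencephalon peaks at 5 (Wnt2, Wnt5a, Wnt8a, Rspo3 and Fzd3), and the counts were equal at 4. This split was not counted over all protein-coding genes, whose windows held 11.7 MGE and 16.4 telencephalon peaks per Mb. It is therefore not a result about these genes. The telencephalon list is the longer, with 31886 peaks used against 25625 in the MGE list. The ratio of MGE to telencephalon peaks was 0.667 in the family windows and 0.804 over the whole lists, which include peaks far from genes. The windows of all protein-coding genes held 19662 MGE and 27594 telencephalon peaks. Those of other Wnt pathway genes held 140 and 216, so a lower ratio than in the whole lists was not particular to the families. There was 1 library per tissue and no replicate. The library kits differed between the tissues, and the track names end in p01 for MGE and p001 for telencephalon, a suffix the labels do not explain. Tissue, kit and any difference in peak calling cannot be told apart.

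**Figure D3:**
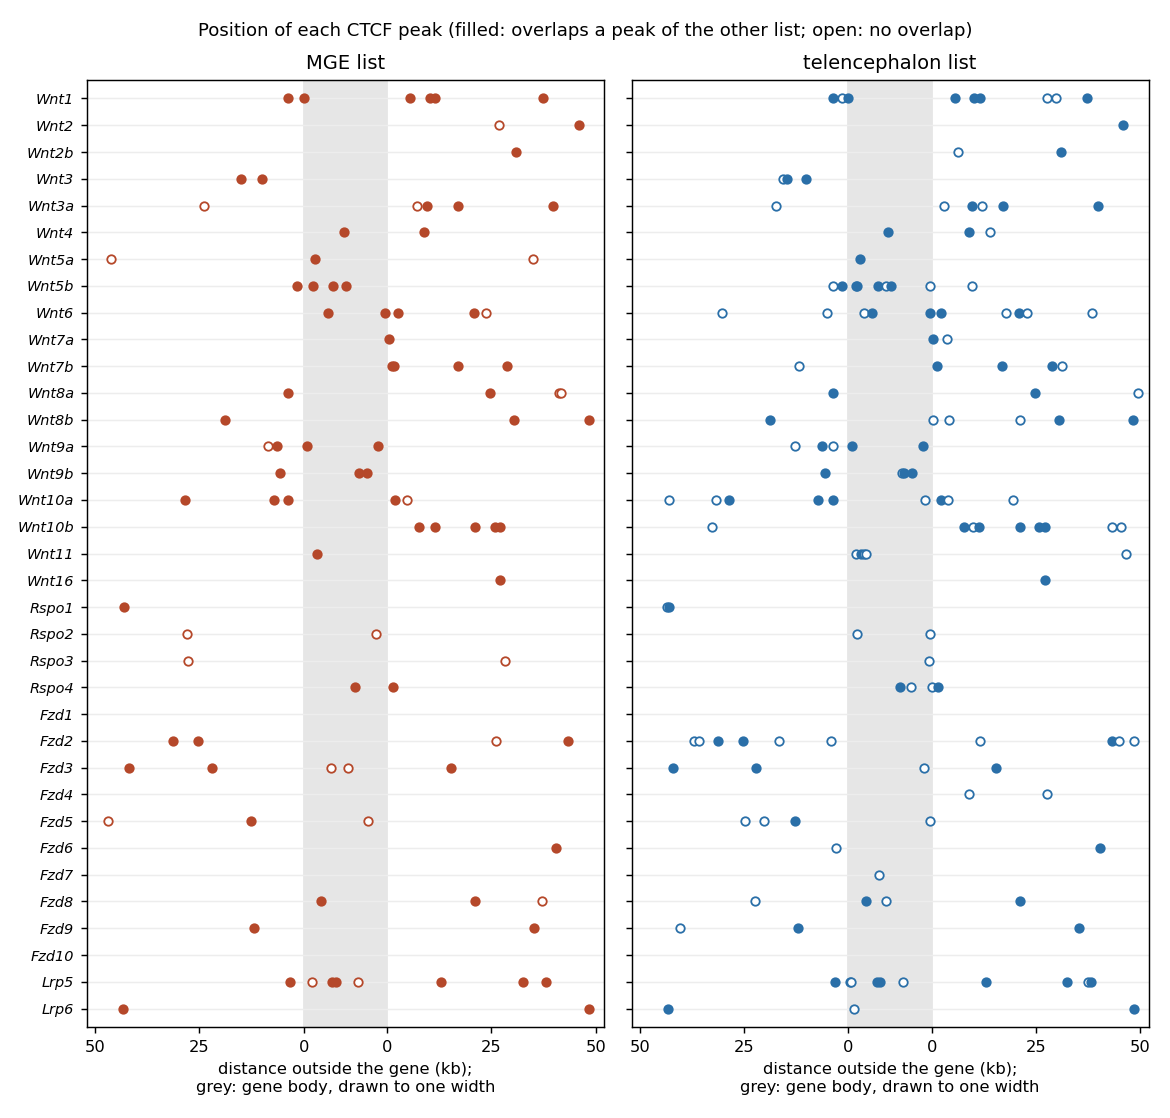
Position of each CTCF peak around the 35 genes in the MGE list (left) and the telencephalon list (right). The horizontal axis is the distance outside the gene in kb, with lower coordinates to the left and the gene body (grey) drawn to one width for all genes; filled points overlap a peak of the other list and open points do not, and at Rspo2 and Rspo3 every point is open.

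Every Wnt ligand gene had at least 1 peak in its window in each list, 19 of 19 (interval 82.4 to 100%). The share of all protein-coding genes lay just below this interval in MGE (80.3%), inside it in telencephalon (82.8%), and below it for a peak in both lists (74.0%). The windows of Wnt1 and Wnt10b, Wnt3 and Wnt9b, Wnt3a and Wnt9a, and Wnt6 and Wnt10a overlap and share peaks. The 19 genes are thus not independent, and the interval is too narrow to rest on its lower edge. Wnt ligand windows held 45 MGE peaks (37 shared, 82.2%) and 68 telencephalon peaks (36 shared, 52.9%). Per Mb of window this was 21.2 in MGE and 32.1 in telencephalon. At 12 ligand genes every MGE peak was shared. These were Wnt1, Wnt2b, Wnt3, Wnt4, Wnt5b, Wnt7a, Wnt7b, Wnt8b, Wnt9b, Wnt10b, Wnt11 and Wnt16. The same count was not made over all protein-coding genes, in whose windows 68.1% of MGE peaks were shared. The 12 therefore cannot be read as a trait of the ligands.

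Wnt1, a ligand needed for midbrain development, and Wnt10b, a canonical ligand, lie on chromosome 15 with a gap of 11650 bp between them. The window of the pair, 123 kb long, held 6 MGE peaks, all shared, and 10 telencephalon peaks, of which 6 were shared. Besides the promoter peak of Wnt1 there was a shared peak between the genes (chr15:98785780-98786052 in MGE and chr15:98785870-98786110 in telencephalon), 3805 bp upstream of Wnt1 in MGE. Downstream of Wnt1 lay a shared peak of 547 bp in MGE and 489 bp in telencephalon (chr15:98799332-98799878 in MGE), whose midpoints differed by 4.0 bp, and 2 further shared peaks inside Ddn. The remaining shared peak lay inside Prkag1. The 4 unshared telencephalon peaks were 150 to 290 bp wide. All peaks within 50 kb of Wnt10b other than a 150 bp telencephalon peak inside Arf3 lay on the Wnt1 side of the gene.

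Wnt6 and Wnt10a, ligands with roles in epithelial tissues, lie side by side on chromosome 1 with a gap of 6696 bp. Their joint window of 150 kb held 5 MGE peaks, 4 of them shared, and 10 telencephalon peaks, also with 4 shared. A shared peak lay inside Wnt6 near its higher end (chr1:74784493-74784870 in MGE and chr1:74784518-74784768 in telencephalon), and a shared peak lay between the genes, 327 bp wide in MGE and 649 bp in telencephalon (chr1:74787854-74788180 in MGE and chr1:74787576-74788224 in telencephalon). Just beyond Wnt10a another shared peak measured 481 bp in MGE (chr1:74806137-74806617) and 412 bp in telencephalon. An MGE peak of 244 bp and a telencephalon peak of 402 bp beyond it stood 584 bp apart and were counted as unshared. Wnt10a had a peak inside the gene in the telencephalon list (chr1:74803107-74803320, 214 bp), and the nearest MGE peak to the gene lay 1961 bp away.

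Wnt3a, a ligand of the cortical hem required for the hippocampus, and Wnt9a lie head to head on chromosome 11 with a gap of 16097 bp. Their window held 5 MGE peaks (3 shared) and 6 telencephalon peaks (3 shared). All 5 MGE peaks had the width of 244 bp, the narrowest in that list and the width of 28.9% of all MGE peaks. The telencephalon peaks ranged from 150 to 380 bp. In that list the narrowest width was 150 bp, found for 5.74% of all peaks, so the 2 lists start from different minima. Neither list had a peak inside Wnt3a. A shared peak inside Wnt9a (chr11:59307828-59308071 in MGE and chr11:59307903-59308114 in telencephalon) lay 979 bp from its start in MGE and 1054 bp in telencephalon, so that Wnt9a counted as having a gene-end peak in the MGE list and none in telencephalon, though the peaks overlap. Wnt3 and Wnt9b, which overlap each other at their starts on chromosome 11, had 3 MGE peaks, all shared, and 4 telencephalon peaks, 3 of them shared. The shared peaks at chr11:103758733-103759121 (389 bp) and chr11:103763707-103764127 (421 bp) in MGE lay inside Wnt9b, 15054 and 10048 bp upstream of Wnt3. Their telencephalon partners were 705 bp (chr11:103758697-103759401) and 583 bp wide. No peak of either list lay inside Wnt3 or within 50 kb downstream of it.

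**Figure D4:**
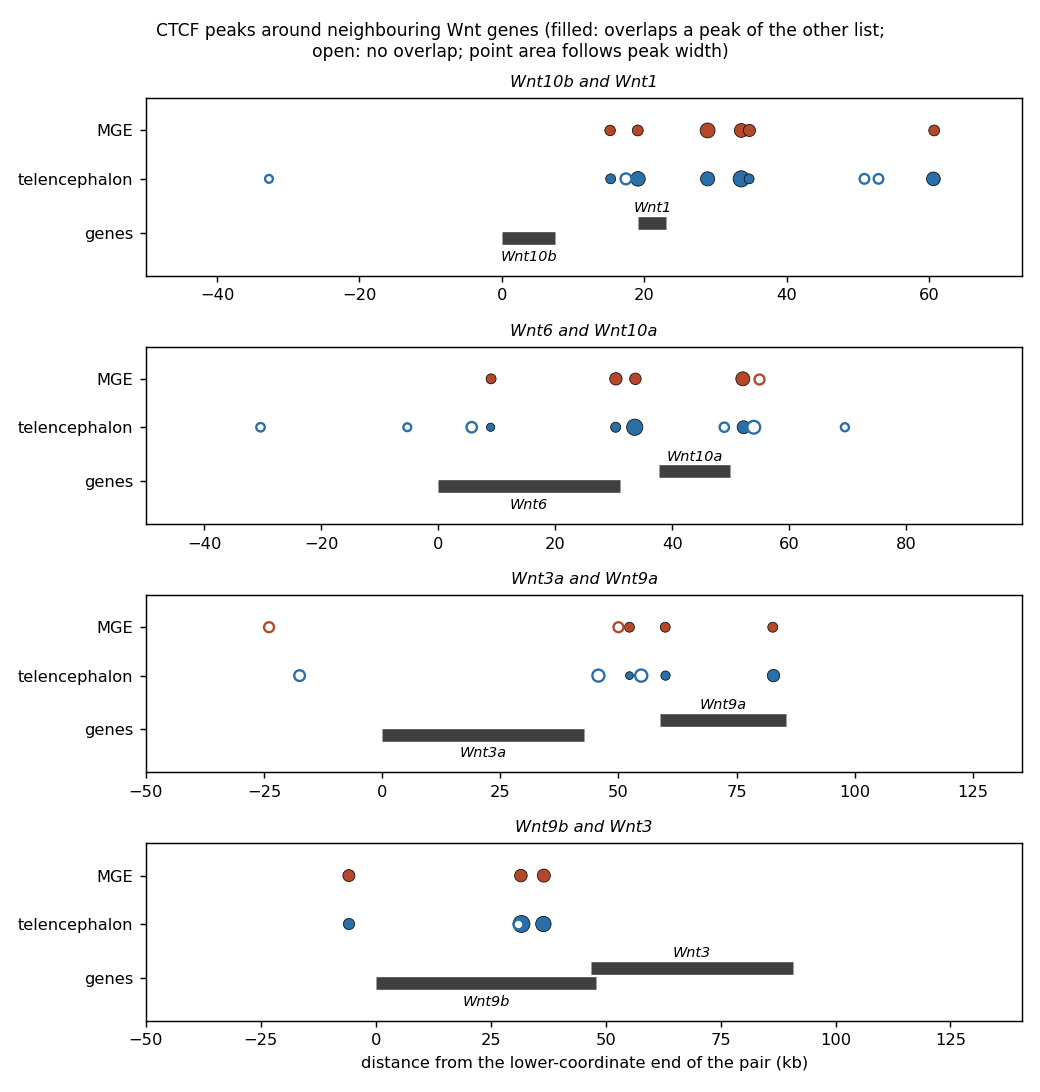
CTCF peaks around 4 pairs of neighbouring Wnt genes, placed by distance in kb from the lower-coordinate end of the pair, with MGE above telencephalon and the genes as bars. Filled points overlap a peak of the other list, open points do not, and point area follows peak width; around Wnt10b and Wnt1 all 6 MGE points are filled.

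Among the ligands that stand alone, Wnt5b, a ligand of the non-canonical branch, had 4 MGE peaks, all shared, and 9 telencephalon peaks, 4 of them shared. Its widest shared pair lay inside the gene (chr6:119472126-119472563 in MGE and chr6:119472223-119472717 in telencephalon). The unshared telencephalon peaks of Wnt5b measured 172 to 213 bp, and the shared ones 246 to 495 bp. Wnt7b, a ligand of the developing cortex, had 4 shared MGE peaks, all on the higher-coordinate side. A telencephalon peak of 1044 bp (chr15:85583065-85584108), the widest in any of the windows, covered 2 of them, of 287 and 325 bp. The widest MGE peak there measured 473 bp (chr15:85598816-85599288), with a telencephalon partner of 586 bp. Wnt7a had a shared peak 404 bp upstream of the gene in MGE (chr6:91411757-91412067) and 392 bp upstream in telencephalon (chr6:91411745-91412107), and an unshared telencephalon peak of 373 bp lay 3599 bp upstream.

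Wnt4, a ligand of kidney and gonad development, had a shared peak inside the gene, 325 bp wide in MGE and 548 bp in telencephalon, and another 8724 bp downstream in MGE, which at 550 bp was the widest MGE peak of all the windows (chr4:137308225-137308774). A telencephalon peak of 574 bp farther downstream (chr4:137313522-137314095) had no MGE partner, with the nearest MGE peak 4748 bp from it. It was the widest unshared peak in the telencephalon list around these genes. Wnt11 had 1 MGE peak and 4 telencephalon peaks inside the gene. The MGE peak overlapped the second of the 4 telencephalon peaks (chr7:98837973-98838195), and the 150 bp peak on the downstream start was 416 bp from the MGE peak.

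Wnt5a, a non-canonical ligand, had 3 MGE peaks and 1 telencephalon peak. The telencephalon peak and an MGE peak were shared inside the gene (chr14:28507500-28507870 in MGE and chr14:28507589-28508081 in telencephalon), and the other MGE peaks were 244 and 253 bp wide. Wnt8b, expressed at the cortical hem, had 3 MGE peaks, all shared, and 6 telencephalon peaks, 3 of them shared. The widest telencephalon peak of Wnt8b (chr19:44544703-44545397, 695 bp) overlapped an MGE peak of 415 bp inside Sec31b. The unshared telencephalon peaks of Wnt8b, 153 to 181 bp, included that 300 bp downstream of the gene (chr19:44514573-44514753). Wnt2, Wnt2b, Wnt8a and Wnt16 had no peak inside the gene in either list. Their windows held 2, 1, 4 and 1 MGE peaks and 1, 2, 3 and 1 telencephalon peaks, with 1 to 2 shared at each gene. Wnt2b, a further hem ligand, had a shared peak 30992 bp upstream in MGE, 320 bp wide in MGE and 486 bp in telencephalon.

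The R-spondin windows held 7 MGE peaks, of which 3 were shared, and 9 telencephalon peaks, of which 3 were shared. These shares were 42.9% and 33.3%, against 68.1% and 48.5% of peaks in the windows of all protein-coding genes. Densities were 10.2 peaks per Mb in MGE and 13.1 in telencephalon, below those of the other families in each list. Over the windows of all protein-coding genes they were 11.7 and 16.4. With so few peaks at 4 genes, neither the shares nor the densities can be read as a trait of the R-spondins. Rspo2, an R-spondin of limb and lung development and the longest gene of the families at 150807 bp, had 2 MGE peaks of 244 bp and 2 telencephalon peaks of 346 and 210 bp, none shared and the nearest of them 16815 bp apart. Rspo3, known from blood vessel development and also expressed at the hem, had 2 MGE peaks outside the gene and 1 telencephalon peak inside it, none shared. Rspo2 and Rspo3 were the sole genes of the families with peaks in both lists and no shared peak. The pattern was not particular to them. Among the other Wnt pathway genes, described further on, Tle1, Tle3, Tle4, Dkk4, Notum, Wls and Gsk3b had it too. Its share over all protein-coding genes was not counted. Rspo4, needed for nail growth, had a shared peak inside the gene (371 bp in MGE and 357 bp in telencephalon) and another 1413 bp downstream in MGE, with a partner of 537 bp. A telencephalon peak of 256 bp lay on the far end of Rspo4 (chr2:151874576-151874831), 1250 bp from the nearest MGE peak. Rspo1 had a shared peak 43083 bp upstream in MGE, which lay in a neighbouring gene.

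The frizzled genes, most of them short with a median length of 4593.5 bp, were the family with the lowest share of occupied windows in each list. An MGE peak was found at 6 of 10 (60.0%, interval 26.2 to 87.8%) and a telencephalon peak at 8 of 10 (80.0%, 44.4 to 97.5%), and the backgrounds of 80.3% and 82.8% given above lay inside both intervals. Around Fzd1 and Fzd10 neither list held a peak within 50 kb, as was the case for 11.0% of all protein-coding genes. The nearest peaks to Fzd1 lay 153719 bp away in MGE and 153688 bp in telencephalon, and to Fzd10 78023 bp and 61027 bp. Fzd4, the receptor for norrin in blood vessels of the retina, and Fzd7 had peaks in their windows in the telencephalon list alone, as did 8.77% of all genes. Fzd4 had telencephalon peaks of 390 bp (chr7:89419039-89419428) and 217 bp downstream, and the nearest MGE peak to the gene lay 67475 bp away. Fzd7 had a telencephalon peak of 256 bp inside the gene (chr1:59483809-59484064), and the nearest MGE peak lay 97666 bp from the gene. No gene showed the opposite pattern, which 6.23% of all genes did.

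Fzd8 had a shared peak inside its 3346 bp (chr18:9213356-9213716 in MGE and chr18:9213427-9213720 in telencephalon) and a second peak there of 457 bp in telencephalon, 403 bp from the MGE peak. At Fzd5, a receptor of eye and vessel development, each list had a peak inside the 7193 bp gene, but they did not overlap. The MGE peak (chr1:64735929-64736240, 312 bp) lay in the gene 1196 bp from the telencephalon peak at its start. Fzd2 had 4 MGE peaks and 10 telencephalon peaks, the latter the largest telencephalon count among the frizzled genes. In each list 3 of its peaks were shared, and none lay inside the gene. The widest shared pair was chr11:102651386-102651762 in MGE and chr11:102651290-102651768 in telencephalon. Of the 7 unshared telencephalon peaks around Fzd2 none was wider than 257 bp. Fzd3, a receptor of planar polarity that guides axons, had 5 MGE peaks and 4 telencephalon peaks. The 3 shared ones lay outside the gene, the widest in MGE at chr14:65150015-65150426 with a telencephalon partner at chr14:65150028-65150424, and those inside, 2 in MGE at 244 bp and 1 in telencephalon at 150 bp, had the narrowest width of their list. Fzd6 and Fzd9 had 1 and 2 MGE peaks, all shared, and 2 and 3 telencephalon peaks.

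Lrp5, a co-receptor known for its part in bone mass, had the most MGE peaks of all 35 genes, 8 with 6 shared, and also 10 telencephalon peaks with 6 shared. Inside the gene were 4 MGE peaks, 244 to 266 bp wide, and 5 telencephalon peaks, 203 to 601 bp wide. The shared peaks outside the gene measured 315 to 493 bp in MGE and 355 to 712 bp in telencephalon, the widest being chr19:3719184-3719676 in MGE and its partner chr19:3719012-3719723 in telencephalon. Lrp6, the co-receptor most needed in the embryo, is the longer gene at 120438 bp against 101761 bp for Lrp5. It had no MGE peak and 1 telencephalon peak inside it (chr6:134454040-134454322, 283 bp), and a shared peak on each side, 43251 bp and 48437 bp from the gene in MGE.

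Peak width differed between shared and unshared peaks of the windows. The median width was 346 bp for shared and 244 bp for unshared MGE peaks, and 397 bp for shared and 225 bp for unshared telencephalon peaks. Of the 45 MGE peaks at or above the median width of the whole MGE list, 43 were shared (95.6%, against 81.0% of such peaks in the whole list). Below it 17 of 35 were shared (48.6%, against 35.6%). In the telencephalon list the shares were 44 of 61 at or above its median width (72.1%, against 71.1%) and 15 of 59 below it (25.4%, against 22.7%). These backgrounds include peaks far from genes. Of MGE peaks of any width, 58.4% were shared over the whole list and 68.1% in the windows of all protein-coding genes. Shares by width were not computed for those windows. Of the 20 unshared MGE peaks, 13 had the narrowest width of the list, as did 6 of the 60 shared ones and 28.9% of all MGE peaks. The share at that width among all unshared MGE peaks was not counted, so the 13 are not a result about these genes. The 2 unshared MGE peaks that reached the median width of their list were those inside Fzd5 (312 bp) and on the lower-coordinate side of Rspo3 (306 bp). In the telencephalon list 17 unshared peaks did, among them those at Wnt4, Fzd8 and Fzd4.

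**Figure D5:**
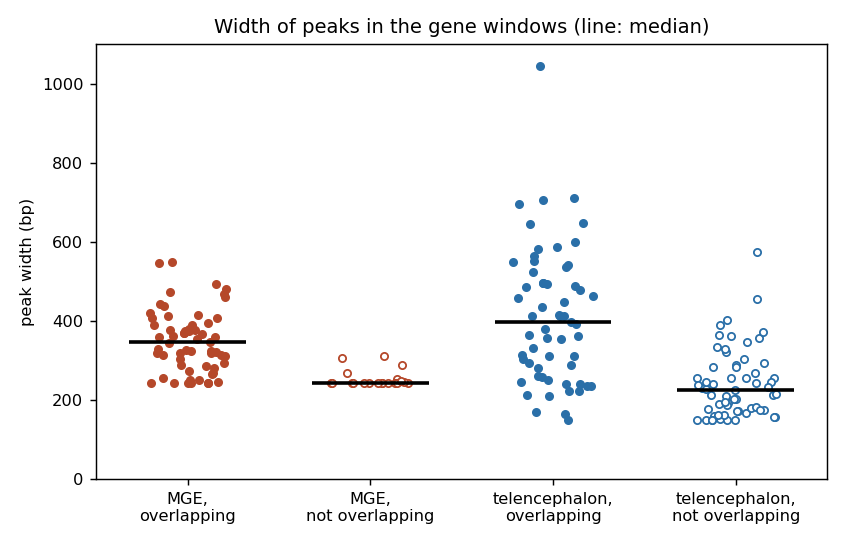
Width in bp of each CTCF peak in the windows of the 35 genes, divided into peaks that overlap a peak of the other list and peaks that do not, for MGE and telencephalon. Each point is a peak and each line a median; the medians are 346 and 244 bp in MGE and 397 and 225 bp in telencephalon.

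Gene-end peaks were found for 9 genes in all. Wnt1, Wnt6, Wnt7a and Fzd8 had one in both lists (4 of 35, 11.4%, against 10.5% of all genes). Wnt8b, Wnt10a, Rspo4 and Fzd5 had one in telencephalon alone (4 of 35, against 8.79%), Wnt9a in MGE alone (1 of 35, against 1.58%), and 26 genes had none (against 79.1%). The telencephalon peaks of the second set were 181 to 304 bp wide.

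Other genes of the Wnt pathway were counted in the same way. The list held 54 genes, all found in the RefSeq table: secreted inhibitors, secretion factors, R-spondin receptors and receptor turnover, other receptors and planar polarity, cytoplasmic transduction and nuclear factors. In the gene body or within 50 kb, 50 of 54 had an MGE peak (92.6%, interval 82.1 to 97.9%, against 80.3% of all protein-coding genes) and 53 of 54 a telencephalon peak (98.1%, 90.1 to 100%, against 82.8%). In the gene body 28 had an MGE peak (51.9%, 37.8 to 65.7%, against 31.4%) and 31 a telencephalon peak (57.4%, 43.2 to 70.8%, against 39.1%). The shares over all genes lay below these 4 intervals, whereas for the 35 family genes they lay inside in the same windows. The other pathway genes are longer, with a median length of 44818 bp against 22702 bp for the families. By role, an MGE peak inside the gene was found for 9 of 11 other receptors and planar polarity genes, 8 of 12 nuclear factors, 5 of 10 transduction genes, 3 of 7 receptor turnover genes, 1 of 2 secretion factors and 2 of 12 secreted inhibitors. In telencephalon the counts in the same order were 10 of 11, 8 of 12, 6 of 10, 2 of 7, 0 of 2 and 5 of 12. For the receptors and planar polarity genes (81.8%, 48.2 to 97.7% in MGE and 90.9%, 58.7 to 99.8% in telencephalon) and, in MGE, for the nuclear factors (66.7%, 34.9 to 90.1%) the share of all genes lay below the interval, and for the remaining roles and lists it lay inside. Among the inhibitors, Dkk2, Frzb and Sfrp1 had no MGE peak within 50 kb and 1 telencephalon peak each, inside the gene. Windows with a telencephalon peak alone were thus found for 3 of 12 inhibitors (25.0%, interval 5.49 to 57.2%). The share of all genes, 8.77%, lay inside this interval. Porcn, which adds the lipid to Wnt proteins, lay 176257 bp from the nearest MGE peak and 92412 bp from the nearest telencephalon peak. Of the nuclear factors, Tcf7l1 had 6 MGE peaks, all shared, and 11 telencephalon peaks, and Lef1 had 2 MGE peaks, both shared, and 4 telencephalon peaks. Ctnnb1, which encodes β-catenin, had 1 MGE peak, shared, and 2 telencephalon peaks.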

How the data were processed

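CTCF ChIP-seq peak lists of 1 MGE and 1 telencephalon library were used. The authors' deposited lists hold peak positions and no score, so read depth is unknown. MACS2 2.1.1.20160309, Bowtie2 2.3.2 and the build mm10 are named in the submitters' processing notes. Calling threshold and control: not given in the sources used here. Per the labels' protocols the library kits differed between tissues. Of 25710 MGE and 31979 telencephalon peaks, the 25625 and 31886 on chromosomes 1 to 19, X and Y were kept. Gene positions, strands and promoter sequences came from RefSeq tables on GRCm38.p6, whose chromosome coordinates equal those of mm10. Strand was known for 23 of the 35 genes. Positions are 1-based, and distances are differences between the nearest edges. With 1 library per tissue no test was made, and any difference describes these libraries. Every gene is accounted for. By rule, positions and widths, of the main peaks where a gene has many, are given for genes with a gene-end peak, the 5 with most peaks per list, those with no peaks or peaks in 1 list, those whose windows overlap, and the 5 widest peaks per list. Details of other genes, such as Wnt5a and Wnt11, were chosen after their values were seen. The members and lists were chosen with earlier results of these data known. Overlap counting (Python 3.11.15, pandas 2.3.3, scipy 1.17.1) was tested on simulated peaks. Alternatives covered windows, gene ends, overlap rules and shortened lists.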

Additional observations from a re-analysis of the deposited data

How the results depend on the processing

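Of 58 alternative values, 42 stayed close to the value reported: within 1.5 times for counts and medians, and inside the 95% interval for shares. Some of the 42 could not move. Cutting the telencephalon list leaves every MGE count and median unchanged, and removing narrow MGE peaks leaves every telencephalon count and median unchanged. The 42 therefore overstates how stable the values are. The other 16 moved. With 10 kb around the gene in place of 50 kb, 20 genes had an MGE peak, the windows held 39 MGE and 66 telencephalon peaks, and the median was 1 peak per gene in MGE and 1 in telencephalon. With the wider 50% of each list, 9 genes had an MGE peak in the body, 3 an MGE and 4 a telencephalon gene-end peak, the windows held 45 MGE and 61 telencephalon peaks, the MGE median was 1, and 60.7% of the telencephalon peaks were shared. Gene ends of 5 kb gave 14 genes in MGE and 21 in telencephalon, and ends of 500 bp gave 5 in telencephalon. Without MGE peaks of the narrowest width, 88.5% of MGE peaks were shared. Among the values that stayed close, with peak edges allowed to lie 500 bp apart, 76.2% of MGE and 53.3% of telencephalon peaks were shared, and when peaks were kept only where the member was the nearest protein-coding gene, 22 genes had an MGE peak and 27 a telencephalon peak. Fewer or narrower windows and fewer peaks lower such counts by construction. Without scores or reads, an uncalled site cannot be told from an unbound one. No paired analysis was possible because each tissue has 1 library.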
